A study of Mus musculus with 2 samples.

Results

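The secreted adipokines are hormones and carrier proteins that fat releases into blood, and 6 genes of this kind, Lep, Adipoq, Retn, Rbp4, Nampt and Rarres2, were followed here in epididymal white adipose tissue of mice lacking PPARβ/δ. They were picked by gene symbol in the annotation of the array. This gave 9 probe sets of 22690, and 6 genes of 12394 that had a probe set naming them alone. Lep, Adipoq, Retn and Rbp4 had 1 probe set each, Nampt 2 and Rarres2 3.

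Epididymal fat was taken from male mice on chow, and the RNA of 5 animals per genotype was combined into 1 pool and hybridised to 1 Affymetrix array. The wild-type pool came from animals aged 12 to 16 weeks, labelled 129S1/SvJae, and the knockout pool from animals aged 12 weeks on a mixed Sv129/C57BL/6 background. The design text instead describes the controls as littermates, so strain may differ between the pools. Each value below is 1 array of 1 pool. No spread between animals exists, no test between genotypes was possible, and every difference is that between these 2 arrays.

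Adipokines couple the state of the fat depot to other organs. Lep encodes leptin, which reports fat stores to the hypothalamus and restrains feeding, and Adipoq encodes adiponectin, a collagen-like protein that assembles into multimers and raises insulin sensitivity. Retn encodes resistin, a cysteine-rich hormone made by adipocytes in the mouse. Rbp4 encodes the plasma carrier of retinol, made by liver and by fat. Nampt encodes the enzyme that limits the salvage of NAD and is also released from cells, and Rarres2 encodes chemerin, an attractant of leukocytes that also acts on adipocytes.

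The genes lie apart in the GRCm38.p6 assembly except that Lep and Rarres2 share chromosome 6, at positions 29060221 to 29073876 and 48569696 to 48572845. Adipoq lies on chromosome 16 (23146536 to 23157968), Retn on chromosome 8 (3655770 to 3659818), Rbp4 on chromosome 19 (38116620 to 38125321) and Nampt on chromosome 12 (32820335 to 32853369). Start-site windows of 300 bases, from 250 before an annotated start to 50 after it, were read from RefSeq for 5 of the 6 genes, 6 windows in all. Rbp4 has 2 windows, 1 at the start of the gene as given above and 1 at a start further downstream, inside the gene. The downstream one is printed. Windows of Lep, Rbp4 and Adipoq are shown because these genes differed most, to an intermediate degree and least. Capitals mark matches, on either strand, to 4 motifs: TTGCNNAA, the core bound by C/EBP factors, CCAAT, the GC box CCGCCC, and TATAAA. The motifs were picked after the sequences had been seen.
Lep, chr6:29059971-29060270, plus strand: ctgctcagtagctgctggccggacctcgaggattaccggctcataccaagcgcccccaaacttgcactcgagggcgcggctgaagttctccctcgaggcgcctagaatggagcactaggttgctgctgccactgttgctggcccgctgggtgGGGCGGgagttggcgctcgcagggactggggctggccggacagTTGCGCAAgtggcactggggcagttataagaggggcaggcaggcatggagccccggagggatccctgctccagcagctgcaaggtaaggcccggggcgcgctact
Rbp4, downstream start, chr19:38124762-38125061, minus strand: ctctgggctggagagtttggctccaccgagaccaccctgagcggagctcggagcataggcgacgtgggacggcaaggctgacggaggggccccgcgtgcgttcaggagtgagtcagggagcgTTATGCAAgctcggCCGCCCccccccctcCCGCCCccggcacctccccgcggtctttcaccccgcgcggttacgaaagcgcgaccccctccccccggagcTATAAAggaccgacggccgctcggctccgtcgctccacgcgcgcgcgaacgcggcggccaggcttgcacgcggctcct
Adipoq, chr16:23146286-23146585, plus strand: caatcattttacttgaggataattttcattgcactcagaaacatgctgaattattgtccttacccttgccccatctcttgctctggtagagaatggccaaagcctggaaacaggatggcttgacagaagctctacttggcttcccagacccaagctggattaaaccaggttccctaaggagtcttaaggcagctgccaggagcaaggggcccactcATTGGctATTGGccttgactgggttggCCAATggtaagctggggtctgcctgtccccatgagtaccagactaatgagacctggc

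The Lep window held the C/EBP letters as TTGCGCAA, 55 to 48 bases before the gene start, and a GC box 98 to 93 bases before it. The downstream Rbp4 window held TTATGCAA, the same motif on the other strand, 128 to 121 bases before its start, with 2 GC boxes and a TATA box 28 to 23 bases before it. The Rbp4 window at the gene start, chr19:38125272-38125571, held 1 CCAAT match, 162 to 158 bases before the start, and no match to the C/EBP, GC box or TATA letters. Its bases were 40.7% G or C, against 72.0% in the downstream window. Which start was used in these samples was not measured. The Adipoq window held 3 CCAAT matches within 34 bases of the start. Over all 32851 windows of this length, 10.8% held the C/EBP letters, 37.4% CCAAT, 35.7% the GC box and 13.6% TATAAA. The direct repeat to which PPARs bind with RXR, AGGTCA followed by any 1 base and AGGTCA again, was searched as well. It was matched in 13 windows of all genes (0.0396%) and in none of the adipokine windows, which says only that these letters are not in these stretches. No match overlapped another in the 3 windows shown.

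All 6 adipokines were lower in the knockout pool. Of all 6533 genes that reached the intensity floor, 55.5% were lower. The floor was an intensity of 32 (log2 5) on at least 1 array and stands in for detection calls. At least 2-fold lower were 3 of the 6, Lep, Rarres2 and Rbp4, against 9.14% of all genes, while 13.7% of all genes were at least 2-fold higher. The median log2 difference of the 6, knockout minus wild type, was -1.21, and that of all genes was -0.08 with quartiles of -0.50 and 0.42. All 6 genes reached the floor on both arrays, through 7 of their 9 probe sets. These 7 probe sets were all lower in the knockout pool and 4 of them at least 2-fold lower. Of the 9637 probe sets that reached the floor and named 1 gene, 56.8% were lower and 8.99% at least 2-fold lower.

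**Figure D1:**
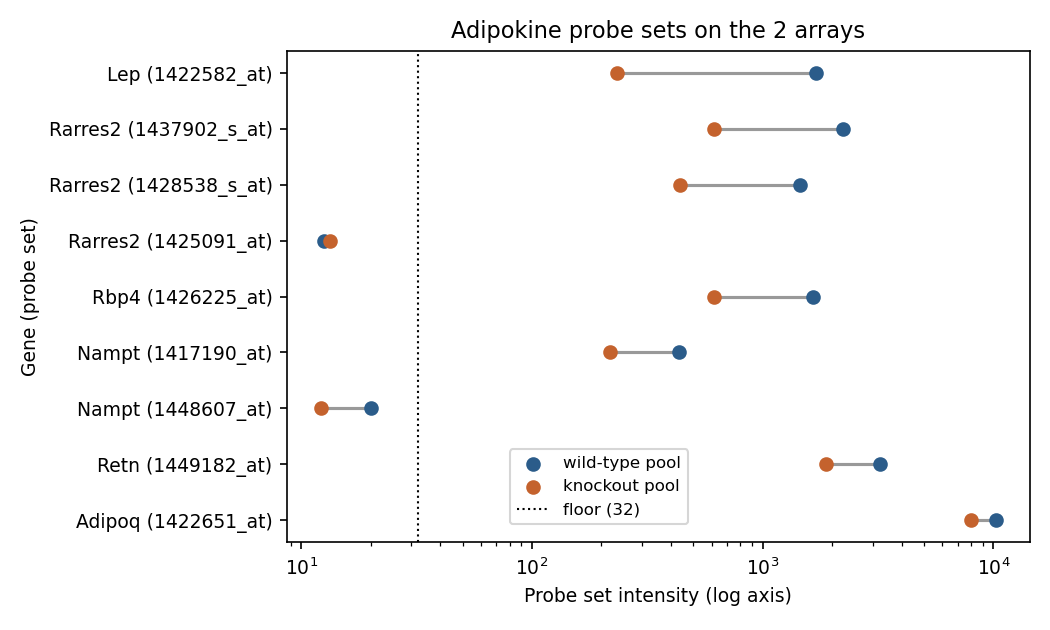
Intensity of each adipokine probe set (log axis) on the array of the wild-type pool (blue) and of the knockout pool (orange), 1 value each, with the floor of 32 as a dotted line. The blue point lies to the right for all 7 probe sets above the floor, with the widest gap for Lep (1698 against 233), and the remaining Rarres2 and Nampt probe sets lie left of the floor on both arrays.

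Leptin showed the largest difference of the 6. The Lep probe set, 1422582_at, read 1698 with wild-type RNA and 233 with knockout RNA. The knockout value was 13.7% of the wild-type value, a log2 difference of -2.87. Ranked from the lowest difference, Lep was number 5 of the 6533 genes. Serpina1b, an α1-antitrypsin gene whose near-identical copies make its value uncertain, was at -4.90. Its knockout value, log2 3.81, was below the floor, so the size of that difference is uncertain too. Pnpla3, Tmem45b and Mest, at -3.62, -3.27 and -3.02, also had a lower difference than Lep.

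Chemerin followed. Rarres2 has 2 probe sets above the floor. The brighter, 1437902_s_at, read 2231 with wild-type RNA and 612 with knockout RNA, a 3.64-fold difference, and ranked 85 from the lowest of all genes. The other, 1428538_s_at, read 1451 and 437, a 3.32-fold difference, so both readings of this gene were close, with log2 differences of -1.87 and -1.73. Both carry the suffix that Affymetrix gives to probe sets whose probes match several transcripts. The probe set without that suffix, 1425091_at, was at 12.5 and 13.3, below the floor on both arrays, and gives no value for the gene.

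Retinol-binding protein was next. Rbp4 read 1653 with wild-type RNA and 616 with knockout RNA, a 2.68-fold difference, and ranked 220 from the lowest. Its log2 difference was -1.42, and the gap of 0.44 to chemerin exceeded the median SD between probe sets of 1 gene. That SD was 0.25 on the log2 scale over 2137 genes with several probe sets above the floor. Spiked controls give another view of technical error: the hybridisation spikes bioB, bioC, bioD and cre ranged from -0.21 to 0.27 over 18 probe sets, and the control dap from -1.03 to -0.57 over 6. The dap differences exceeded the gap between Rbp4 and chemerin and were about as large as the difference of Retn below. None of these measures covers differences between animals.

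Nampt lay at the edge of the 2-fold limit. Its probe set 1417190_at read 434 with wild-type RNA and 217 with knockout RNA, a log2 difference of -0.9991 (1.9987-fold), so it was not counted among the 3 genes above. It ranked 599 from the lowest. The other probe set, 1448607_at, was below the floor on both arrays, at 20.0 and 12.2.

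Resistin and adiponectin differed least. Retn read 3225 with wild-type RNA and 1884 with knockout RNA, 58.4% of the wild-type value, a log2 difference of -0.78. Its gap to Nampt, 0.22, was smaller than the median SD between probe sets. Adipoq read 10259 and 8030, so the knockout pool held 78.3% of the wild-type intensity, a log2 difference of -0.35, and 2158 of the 6533 genes had a lower difference. The gap between resistin and adiponectin was 0.42. Intensities of different probe sets depend on the probes, so they give no order of transcript abundance between the adipokines.

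**Figure D2:**
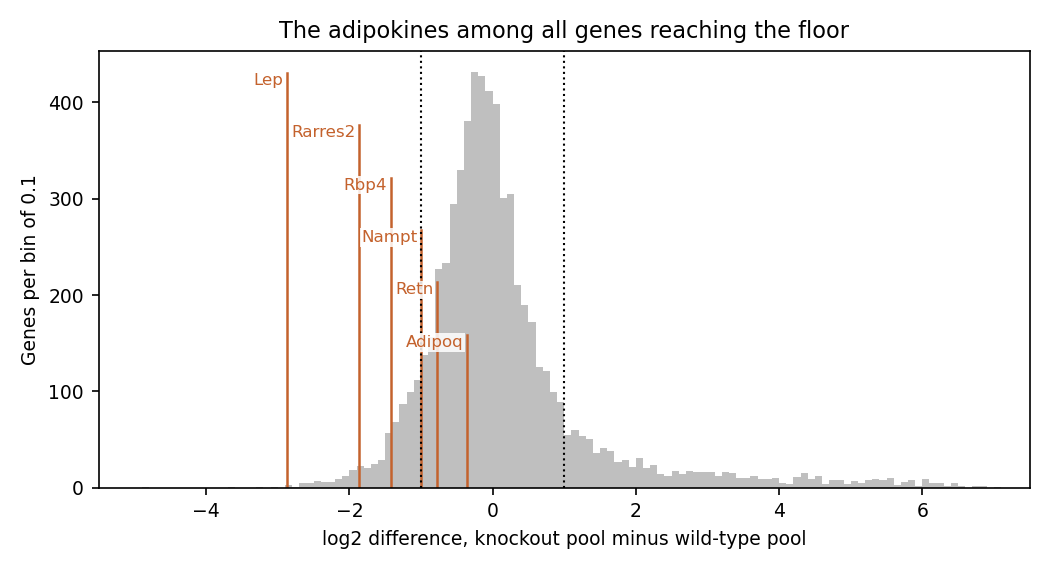
Number of genes per bin of 0.1 in log2 difference, knockout pool minus wild-type pool, for the 6533 genes reaching the floor. Orange lines mark the 6 adipokines and dotted lines mark 2-fold; the adipokines run from -2.87 for Lep to -0.35 for Adipoq, all left of 0.

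Among the genes above the floor on both arrays, those nearest to leptin in log2 difference were Id3, which blocks helix-loop-helix transcription factors (-2.81), Mest, an imprinted gene of the adipocyte (-3.02), and Zeb2, a transcriptional repressor (-2.69). Near chemerin lay Tm4sf1, Ctdspl and Sod3, the extracellular superoxide dismutase, each between -1.87 and -1.86. Acyp2, Slit3 and Dst were nearest to Rbp4, Wdsub1, Nr1d2 and Smim10l1 to Nampt, Ndufa4, Sufu and Coq5 to Retn, and Ubl3, Norad and Stx3 to Adipoq. Likeness rests on 1 difference between 2 arrays, and all of these except the neighbours of leptin lay within 0.01 of their adipokine.

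Adipocyte markers were lower in the same pool. Of 20 listed adipocyte markers 16 had a probe set and 14 were above the floor, Acvr1c and S100b being below it. Of these, 13 were lower and 7 at least 2-fold lower, against 55.5% and 9.14% of all genes, and their median log2 difference was -0.93. None of the 14 had a lower difference than leptin. The nearest was Lgals12, a galectin of adipocytes, which read 623 with wild-type RNA and 125 with knockout RNA (-2.32). It was also the only marker lower than chemerin, and with Slc2a4, the insulin-responsive glucose transporter (-1.53), 1 of 2 lower than Rbp4. Gpd1, which makes glycerol phosphate, differed by -1.39. Nampt and Retn each had 7 of the 14 markers below them, and adiponectin had 12. Only Fabp4, the fatty acid carrier (-0.20), and Aqp7, a glycerol channel (0.96 at its brighter probe set and -2.01 at the other), were above adiponectin. Even that brighter Aqp7 probe set read 37.2 with wild-type RNA, near the floor, and 72.6 with knockout RNA. In bulk tissue, fewer adipocytes and less RNA of a gene per adipocyte cannot be told apart.

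Adiponectin was among the brightest probe sets, and with 1 probe set its difference could not be read a second time. Other bright adipocyte genes had several. The difference ran from -1.88 to -0.10 over the probe sets of Fabp4, from -1.70 to -0.71 over those of Cd36, the fatty acid translocase, and from -0.98 to -0.36 over those of Lpl, lipoprotein lipase. The probe sets that represent these 3 genes read 15004, 12845 and 12206 in the wild-type pool. Over the 20 adipocyte markers and adipokines, mean log2 intensity and log2 difference had a Spearman rho of 0.54 and a Pearson r of 0.18, a description across genes measured on the same 2 arrays. Whether brightness has a part in the small difference of Adipoq was not tested.

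RNA of testis germ cells was higher in the pool with the lower adipokines. By 2-fold or more, 18 of 19 testis markers were above their wild-type value, against 13.7% of all genes. The median log2 difference of the 19 was 4.67. Their summed intensity was 4107 with wild-type RNA and 75617 with knockout RNA. No marker was listed at 0. The 3 markers Tssk2, Acrv1 and Ddx4 reached the floor only with knockout RNA and could only be higher. With dim values raised to the floor the median was still 4.67. Meig1, needed for spermiogenesis, read 45.2 and 3947, Akap4, of the sperm tail, 63.4 and 5047, and Crem was the exception at 54.6 and 43.9. Epididymis markers were abundant in both pools, with summed intensities of 49112 and 57099 over 9 genes and a median log2 difference of 0.32 over the 8 above the floor. The summed intensity of the 16 adipocyte markers with a probe set was 72084 with wild-type RNA and 46326 with knockout RNA. The part of this other RNA in the lower adipokine values was not tested.

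Markers of the other cells of fat were lower too. All 13 macrophage markers above the floor were lower (median -0.78), against 55.5% of all genes. Of these Cd163, Cd14 (42.8 and 25.3) and Fcer1g (39.6 and 18.4) reached the floor only with wild-type RNA, so they could only be lower. The scavenger receptor Cd163 led, at least 2.68-fold lower with its knockout value set to the floor, with Laptm5 (471 and 178) and Tyrobp (129 and 50.3). Of 10 endothelial markers 9 were lower (median -1.03), among them Sox18 (-1.59), Vwf (-1.52) and Tek (-1.16). The exception was Cldn5 at 0.01, a sign that turned under 3 of the other scalings. Of 11 markers of preadipocytes and fibroblasts 8 were lower (median -0.57), among them the matrix protein Lum (228 and 93.7) and Cd34 (746 and 335), while Dpp4 read 76.7 and 123 and the growth factor receptor Pdgfra 917 and 997. Mesothelial markers were mixed, with 4 of 7 lower and a median of -0.01 that turned to 0.07 when differences were centred on their median. In these other lists Robo4, Pi16, Ebf2, Msln and Wt1 also reached the floor only with wild-type RNA. With dim values raised to the floor the medians were -0.72 for macrophage, -0.96 for endothelial and -0.48 for preadipocyte and fibroblast markers.

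**Figure D3:**
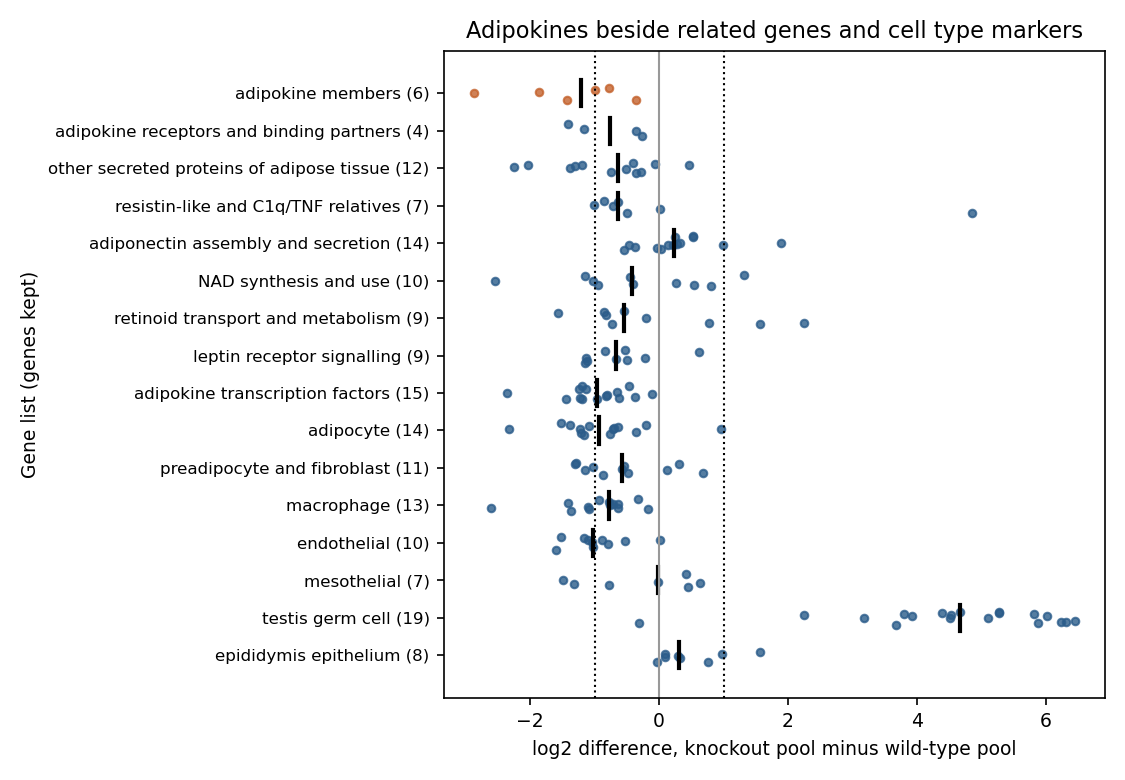
log2 difference, knockout pool minus wild-type pool, of every gene above the floor in each list (number in brackets), with a black bar at the list's median and dotted lines at 2-fold. The adipokines (orange, median -1.21) lie on the lower side with the adipocyte (-0.93) and endothelial (-1.03) markers, and the testis germ cell markers lie at the far right (4.67). Values below the floor on 1 array are plotted as read.

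Receptors and binding partners of the adipokines were lower where they could be measured. Of 12 listed, 10 had a probe set and 4 were above the floor. All 4 were lower and 2 at least 2-fold lower, against 55.5% and 9.14% of all genes. The median log2 difference was -0.76 (-0.71 if dim values are raised to the floor). Cap1, an actin-binding protein also described as a receptor for resistin in human monocytes, read 610 with wild-type RNA and 230 with knockout RNA, with log2 differences of -1.41 and -1.35 at its 2 probe sets. Adipor2 read 437 and 196 (-1.16). Adipor1, the other adiponectin receptor, read 1345 and 1119 (-0.27, and -0.77 at its second probe set). Cdh13, T-cadherin, which binds adiponectin multimers, was near the floor at 37.4 and 29.3, and reached it only with wild-type RNA.

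The leptin receptor Lepr, at 12.6 and 9.51, was below the floor on both arrays. So were the chemerin receptors Cmklr1 and Ccrl2, the retinol-binding protein receptor Stra6, the resistin-binding receptor Tlr4 and Ttr, the plasma partner of retinol-binding protein. No difference is given for these 6.

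Other secreted proteins of fat were mostly lower. Of 31 listed, 25 had a probe set and 12 were above the floor. Of these, 11 were lower and 5 at least 2-fold lower, against 55.5% and 9.14% of all genes, and the median log2 difference was -0.63. Among them Nrg4, Saa3 and Metrnl reached the floor only with wild-type RNA and could only be lower. Nrg4, a neuregulin released by adipocytes, read 149 with wild-type RNA and 31.1, just below the floor, with knockout RNA, at least 4.65-fold lower. Npr3, the clearance receptor for natriuretic peptides, is bound to the membrane although it was in the list. It read 2972 and 725 (-2.03, and -3.06 at the lowest of its 3 probe sets). Saa3, a serum amyloid, read 64.1 and 24.5, at least 2.00-fold lower. Agt, angiotensinogen, read 1851 and 753, and Igf1, insulin-like growth factor, read 2263 and 990.

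At the upper end of the list were Angptl4, an inhibitor of lipoprotein lipase and an established PPAR target (1239 and 1024), Gpx3, plasma glutathione peroxidase (5067 and 4843), and Lcn2, lipocalin 2. Lcn2 was the only one of the 12 higher in the knockout pool (5164 and 7101, 0.46), beside a median difference of 0.32 for epididymis markers. The log2 difference of Gpx3, -0.07, became positive after centring on the median of all genes and after the intensity trend had been subtracted. The remaining 13, among them Apln (apelin), Serpina12 (vaspin), Itln1 (omentin), Ccl2, Il6 and Tnf, were below the floor on both arrays.

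Transcription factors known to act on adipokine genes were lower throughout the 15 above the floor. Over all genes 55.5% were lower. Of the 15, 7 were at least 2-fold lower as read, against 9.14% of all genes. The median log2 difference of the 15 was -0.96 (-0.82 if dim values are raised to the floor). One of the 7, Nr1h3 (43.9 and 19.1), reached the floor only with wild-type RNA and could only be lower. With its knockout value at the floor it was at least 1.37-fold lower, so its 2-fold call rests on a dim reading. Pparg, the receptor that drives adipocyte differentiation and activates Adipoq, read 1893 with wild-type RNA and 370 with knockout RNA (-2.35). Klf15 read 331 and 121 (-1.45) and Nr3c1, the glucocorticoid receptor, 821 and 345 (-1.25). Cebpa, a gene of the C/EBP family, read 2073 and 901 (-1.20). Whether its product bound the Lep window printed above was not measured. Srebf1 (-0.47), Hif1a (-0.37) and Cebpd (-0.12) differed least, but Cebpd was near the floor on both arrays (34.8 and 32.1). The summed intensity of germ cell markers was 4107 and 75617 in the same pools.

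Genes of leptin receptor signalling were lower in 8 of 9 cases, against 55.5% of all genes, with a median of -0.67 (-0.57 if dim values are raised to the floor). Among the 8, Stat5a and Socs3 reached the floor only with wild-type RNA and could only be lower. Stat5a, a signal transducer, read 61.8 and 27.8, at least 1.93-fold lower. Irs1, an insulin receptor substrate, read 357 and 163 (-1.13), and Socs3, the feedback inhibitor of leptin signalling, was at least 1.48-fold lower (47.4 and 21.8). Grb2 (-0.50) and the kinase Jak2 (-0.21) differed less, with a second probe set of each at 0.01 and -0.04. Ptpn1, a phosphatase that acts on the leptin receptor pathway, was higher at its brighter probe set (118 and 182), with a log2 difference of -0.06 at the other.

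In NAD metabolism, which Nampt feeds, 6 of 10 genes were lower and 4 higher (median log2 difference -0.42), near the 55.5% of all genes lower. At least 2-fold lower were 3 of the 10, against 9.14% of all genes. Nnmt, which methylates nicotinamide, the substrate of Nampt, read 1389 with wild-type RNA and 238 with knockout RNA (-2.54). The oxidase Aox1 (-1.14) and the transhydrogenase Nnt (-1.03), which is disrupted in the C57BL/6J strain, were also at least 2-fold lower. The deacetylase Sirt2 read 157 and 391 (1.31), the nicotinamide riboside kinase Nmrk1 42.0 and 73.4 (0.81), and Sirt3 51.2 and 74.5 (0.54). Between the same 2 pools the median log2 difference of the germ cell markers was 4.67.

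In retinoid transport and metabolism, the pathway of Rbp4, 6 of 9 genes were lower and 3 higher, beside 55.5% of all genes lower. Of the 6, Aldh1a3 (33.2 and 20.0) and Rarg (36.6 and 31.8) reached the floor only with wild-type RNA and could only be lower. The median log2 difference was -0.55 (-0.20 if dim values are raised to the floor). Dhrs3, a retinal reductase, read 102 and 34.5 (-1.57), Adh1, an alcohol dehydrogenase, 1095 and 603 (-0.86), and Rxra, the retinoid X receptor that pairs with PPARs, 127 and 72.1 (-0.82). In the other direction Rdh11, a retinol dehydrogenase, read 107 with wild-type RNA and 507 with knockout RNA (2.25). The retinal dehydrogenases Aldh1a2 (97.2 and 288) and Aldh1a1 (4402 and 7569) were also higher, beside median differences of 4.67 for germ cell and 0.32 for epididymis markers.

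Genes for the assembly of adiponectin in the endoplasmic reticulum were mixed. Of 14 above the floor 10 were higher and 4 lower, beside 55.5% of all genes lower. Of the 14, 1 was at least 2-fold higher, against 13.7% of all genes. The median log2 difference of 0.23 lay within the quartiles of all genes (-0.50 and 0.42), beside the same germ cell and epididymis values. Ero1b, an oxidase of the endoplasmic reticulum, read 100.1 and 373 (1.90) and was the one past 2-fold, P4ha2, a prolyl hydroxylase, read 134 and 266 (0.99), and Pdia6, a disulfide isomerase, 2123 and 3064 (0.53). Its relative Ero1a, which promotes adiponectin secretion, was lower at 171 and 118 (-0.54), but its second probe set was at 0.11. Erp44, which retains adiponectin, read 655 and 944 (0.53), with a second probe set at -0.05. Gstk1, also known as DsbA-L, which promotes adiponectin multimers, read 413 and 297 (-0.47), and P4hb, protein disulfide isomerase, 3576 and 2747 (-0.38).

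Neither the direction of the 6 adipokines nor their order changed under the other processing tried, with the exception that Rarres2 has no value without probe sets of shared sequence. Much of this was fixed in advance. Other floors or none left all 6 values as they were, and centring shifted all 6 by the same amount. Averaging over probe sets changed only Rarres2 (-1.80). Only removal of the intensity trend, quantile normalization and the intensity offset could change the order of the others. The log2 difference of Lep ranged from -2.94 to -2.71 over 11 alternatives, that of Rbp4 from -1.49 to -1.26, that of Retn from -0.84 to -0.65 and that of Adipoq from -0.42 to -0.27. Rarres2 ranged from -1.94 to -1.71 over 10. Nampt ranged from -1.07 to -0.86 and so fell on either side of 2-fold.

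**Figure D4:**
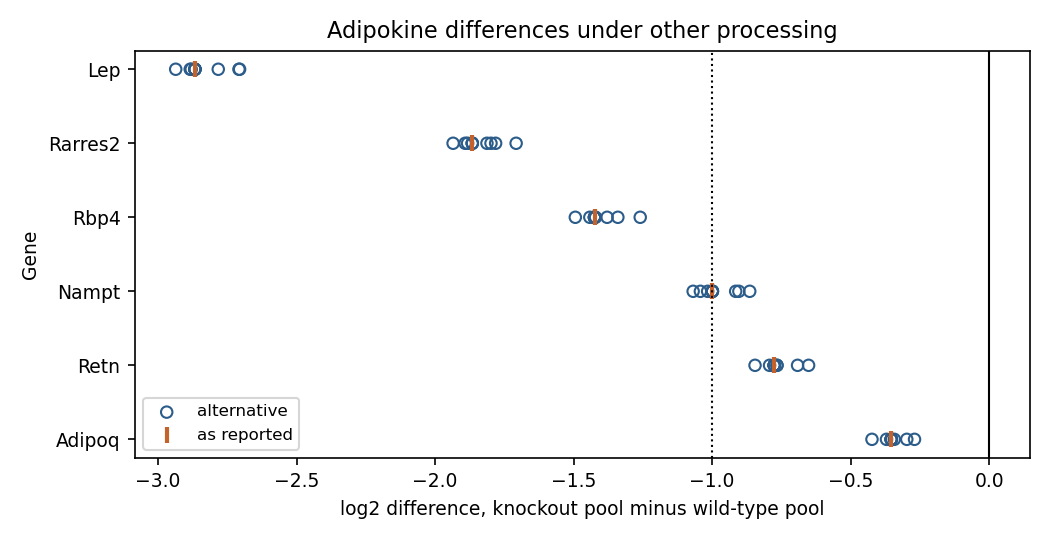
log2 difference, knockout pool minus wild-type pool, of each adipokine as reported (orange bar) and under each alternative (open circles). The circles stay left of 0 for every adipokine, and those of Nampt (-1.07 to -0.86) straddle the dotted line at 2-fold.

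The targeted gene gave no check of the genotype labels, since the single Ppard probe set was below the floor in both pools (6.58 and 6.27). The hybridisation spikes differed by a mean of 0.07 and the spiked control dap by -0.76. Median intensity over all probe sets was 22.3 with wild-type RNA and 23.0 with knockout RNA.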

How the data were processed

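RNA of 2 pools, 1 per genotype, was measured on 1 Affymetrix array each. The deposited values are intensities of probe sets on a linear scale. The submitters' processing notes name GCRMA 2.20, a method that subtracts background modelled on probe sequence, normalises between arrays and compresses dim readings to similar low values. The sources used here do not state which arrays were normalised together.

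log2 of each intensity was taken. Probe sets were named from the array's annotation and updated by Entrez identifier to GRCm38.p6 symbols: 20393 named 1 gene, 691 several and 1606 none, and only the first kind was used. A gene was represented by its probe set with the highest mean log2 value among those at log2 5 or more on at least 1 array. Differences are knockout minus wild type. Where 1 value was below the floor, folds are bounds with that value at the floor. Log2 differences, medians and counts at 2-fold used the values as read unless stated. A gene that reached the floor on only 1 array could be counted only as higher on that array.

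Beside the members, 8 gene lists and 7 marker lists were used; members and lists were chosen with earlier results of these data known. Genes were named from the 3 lowest and 3 highest of each list above the floor, every receptor, and for each adipokine the 3 genes nearest in difference (predicted genes passed over). Other genes were chosen after their values were seen. The summary of genes was tested on simulated data. Python 3.11.15, pandas 2.3.3 and statsmodels 0.14.6 were used.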

Additional observations from a re-analysis of the deposited data

How the results depend on the processing

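Alternatives were no floor, floors of log2 4 and log2 6, the mean over probe sets, no probe sets of shared sequence (suffix _s_at, _x_at or _a_at), centring on the median, on the hybridisation spikes or on 8 reference genes, removal of the trend with intensity, quantile normalization, and an intensity offset of 32. Under these the differences of the 6 adipokines and the adipocyte marker median moved by less than 0.25 on the log2 scale. The number of adipokines at least 2-fold lower was 3, or 4 when centred on the spikes or reference genes or after quantile normalization, and 2 of 5 without shared probe sets. The receptor median (-0.76) was -0.38 with no floor, -1.16 with a floor of log2 6 and -1.41 without shared probe sets, which left 1 gene. The median of other secreted proteins (-0.63) was -0.36 with no floor, -0.91 with the mean over probe sets and -0.97 without shared probe sets. The share of genes at least 2-fold different either way was 15.1% with the offset and 12.9% with no floor, and of those lower 5.25% and 4.97%, against 22.8% and 9.14%. Without a floor more dim genes entered; the cause of the other shifts was not tested. No paired analysis was possible because each genotype has 1 pooled sample.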

Other observations

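Relatives of resistin and adiponectin were measured beside them. Retnla, a resistin-like protein made by macrophages of fat from a gene of its own, read 1360 with wild-type RNA and 675 with knockout RNA, a log2 difference of -1.01, close to that of Nampt. The complement subunits C1qa, C1qb and C1qc, which share the globular fold of adiponectin and are made by macrophages, read 329 and 200, 784 and 503, and 114 and 62.7. C1qtnf12, a secreted C1q/TNF relative of adiponectin, read 1046 and 1052, with probe sets from -0.65 to 0.06. C1qtnf4 read 13.5, under the floor, with wild-type RNA and 393 with knockout RNA, a difference of at least 12.3-fold, beside the germ cell median of 4.67. Over the 7 relatives above the floor, 5 were lower, against 55.5% of all genes, and the median log2 difference was -0.64.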
